A study of Mus musculus with 40 samples.

Results

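The genes described here are the 6 members of the HMGN and HMGA families of chromatin proteins that were followed in H3K27ac ChIP-seq of mouse preadipocytes during induced browning: Hmgn1, Hmgn2, Hmgn3, Hmgn5, Hmga1 and Hmga2. They were taken by name out of 55450 annotated mouse genes, of which 26883 had an H3K27ac peak in at least 1 library and 15006 had one in all 24. The cells were preadipocytes from the inguinal white fat of C57BL/6 mice aged 8 to 12 weeks, either wild type (WT) or Hmgn1-/- Hmgn2-/- (double knockout, DKO). In DKO mice both genes are knocked out in the whole body and not only in fat cells. Both genotypes were given the same medium to turn them into brown-like adipocytes, from confluence on: 4 days with rosiglitazone at 1 μM, T3 at 1 nM, IBMX at 0.5 mM, dexamethasone at 5 μM and insulin at 0.5 μg/ml, and then 4 days of T3 and insulin alone. Libraries were made from the preadipocytes (day 0) and on days 3, 6 and 9, with 3 libraries for each genotype at each day, 24 in all. The study describes the 3 libraries of a group as biological replicates, without saying whether they came from separate animals, and the p-values measure the spread between them.

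HMGN proteins bind the nucleosome itself, through a conserved nucleosome-binding domain, and are known to sit at promoters and enhancers and to compete there with linker histone H1. HMGA proteins carry AT-hooks, short motifs that grip the minor groove of AT-rich DNA, and help assemble transcription factors at enhancers. Hmgn1 and Hmgn2 are the abundant HMGN genes of most tissues, Hmgn3 is best known from the nervous system and the endocrine pancreas, and Hmgn5 is X-linked and codes for a variant with a long acidic tail. Hmga1 and Hmga2 are high in embryonic and proliferating cells, and mice without Hmga2 are small and lean. H3K27ac, acetylated lysine of histone H3, marks active promoters and enhancers, so a peak at one of these genes is a sign of an active regulatory element and not a measurement of its RNA or protein.

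For each gene, the window ran over its annotated span and 5 kb upstream. Coordinates are those of mm10 (GRCm38). Hmgn1 (ENSMUSG00000040681.16) is on the minus strand of chromosome 16 at chr16:96120618-96127729, and Hmgn2 (ENSMUSG00000003038.15) on the minus strand at chr4:133964738-133968650. Hmgn3 (ENSMUSG00000066456.14) lies on the minus strand at chr9:83109948-83146685 and Hmgn5 (ENSMUSG00000031245.8) on the minus strand at chrX:109004534-109013404. Hmga1 (ENSMUSG00000046711.16) is on the plus strand at chr17:27556497-27563674, and Hmga2 (ENSMUSG00000056758.14), the longest at 115.2 kb, on the minus strand at chr10:120361275-120476469. Other annotated genes reach into every window except that of Hmgn1, among them Dhdds upstream of Hmgn2, AI413582 at the end of Hmga1 and 2 antisense RNAs inside Hmga2, and a peak there was counted for the window.

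RefSeq start sites with a promoter sequence (GRCm38.p6) were matched for 5 of the 6 genes. The sequences below are the bases before the start, shown because the peaks of these genes lie around them, with the GC box (GGGCGG) and the CCAAT box (CCAAT) in capitals on either strand. Positions are chr16:96127726-96127975 for Hmgn1, chr4:133967992-133968241 for Hmgn2, chrX:109013381-109013630 for Hmgn5 and chr10:120476470-120476719 for Hmga2, all on the minus strand, and chr17:27556324-27556496 on the plus strand for Hmga1, where the bases inside the annotated first exon were left out.
Hmgn1 promoter: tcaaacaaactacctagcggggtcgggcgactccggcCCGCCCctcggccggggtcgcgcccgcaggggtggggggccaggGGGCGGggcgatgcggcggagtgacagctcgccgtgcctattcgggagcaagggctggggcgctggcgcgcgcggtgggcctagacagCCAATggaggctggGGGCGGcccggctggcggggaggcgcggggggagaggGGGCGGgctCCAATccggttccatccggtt
Hmgn2 promoter: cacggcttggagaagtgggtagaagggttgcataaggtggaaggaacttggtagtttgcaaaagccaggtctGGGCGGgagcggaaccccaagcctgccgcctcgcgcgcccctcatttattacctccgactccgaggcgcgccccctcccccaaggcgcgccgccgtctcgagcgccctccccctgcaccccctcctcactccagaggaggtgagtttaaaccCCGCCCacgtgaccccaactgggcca
Hmgn5 promoter: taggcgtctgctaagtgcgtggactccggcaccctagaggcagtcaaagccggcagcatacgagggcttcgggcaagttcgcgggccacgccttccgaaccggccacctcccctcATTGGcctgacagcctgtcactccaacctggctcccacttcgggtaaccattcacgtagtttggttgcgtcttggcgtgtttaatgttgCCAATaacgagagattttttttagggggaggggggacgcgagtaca
Hmga1 promoter: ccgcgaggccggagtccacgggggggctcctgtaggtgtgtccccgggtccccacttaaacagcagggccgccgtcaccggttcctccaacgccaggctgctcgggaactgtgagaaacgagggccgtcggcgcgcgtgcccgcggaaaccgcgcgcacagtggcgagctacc
Hmga2 promoter: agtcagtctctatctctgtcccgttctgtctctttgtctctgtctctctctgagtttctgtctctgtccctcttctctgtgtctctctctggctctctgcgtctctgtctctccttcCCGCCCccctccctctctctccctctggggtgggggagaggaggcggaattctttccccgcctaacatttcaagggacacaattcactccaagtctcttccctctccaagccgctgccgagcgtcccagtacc
The Hmgn1 sequence holds 4 GC boxes and 2 CCAAT boxes, the Hmgn2 sequence 2 GC boxes, the Hmgn5 sequence 2 CCAAT boxes and the Hmga2 sequence 1 GC box. Over all 32851 promoters of the table, 32.7% held a GC box and 33.8% a CCAAT box in the 250 bases before the start. A TATA box (TATAAA) was in none of the 5 sequences, against 12.4% of all promoters. The Hmga1 sequence has only 173 bases and ends at 27556496, short of its RefSeq start at 27556574. It therefore cannot be set beside these shares. In CpG dinucleotides Hmgn1 had 30, Hmgn2 19, Hmgn5 18 and Hmga2 8 in 250 bases, beside a median of 6 over all promoters.

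As a check of the labels, the kb of the marker windows under peaks were summed for each library. Adipocyte markers (Adipoq, Fabp4, Plin1, Cidec, Pparg, Lpl, Cebpa) held 10.3 to 12.7 kb in WT at day 0 and 76.9 to 82.4 kb at day 6. Adipoq had no peak at days 0 and 3, and all 7 had one in every library at days 6 and 9. Of the 7 preadipocyte markers, 5 had a peak in all day 0 libraries of both genotypes, while Cd34 had none. In WT their windows held 31.95 to 38.0 kb at day 0 and still 31.5 to 37.0 kb at day 9, where 6 of the 7 had a peak in every library. The lists held 47448 to 115923 peaks, with the fewest in DKO at day 6 (47448 to 74867, against 98503 to 105511 in WT). DKO day 0 replicate 2 stood apart by wide peaks, with a narrowest peak of 440 bp where the other 23 libraries had 155 to 165 bp. WT day 3 replicate 3 had a highest fold of 159, against 33.2 to 60.6 elsewhere. A weaker mark in each cell and fewer cells with the mark cannot be told apart in such bulk cultures.

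Hmgn2, 1 of the deleted genes, carried peaks in all 12 libraries of WT and in none of the 12 of DKO. In WT the length under peaks was 0.781, 1.29 and 1.04 kb at day 0, and 1.59, 1.40 and 1.502 kb at day 3. It was 1.80, 1.501 and 1.597 kb at day 6 and 1.40, 1.31 and 1.34 kb at day 9. The groups did not overlap at any day. Over the 4 days the covered length was 1.38 kb lower in DKO (exact permutation test, two-sided, adjusted p = 0.0177 over 26883 genes), at the smallest p that the 160000 relabellings can give, 1.25e-05. The call did not survive when only the 20000 strongest peaks per list were kept (0.661 kb lower, adjusted p = 0.0589 by the same exact test). The study reports that the deleted sequence is absent from the DKO genome, and no peak can be called on deleted DNA. Where the window is deleted, the outcome of these tests was therefore set by the genotype. They are no measure of a change in the mark there.

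The WT peaks of Hmgn2 formed a pair of clusters. One spanned the annotated 5′ end, from 34 bp upstream to 1009 bp downstream, and covers the sequence printed above, which a peak touched in 12 of 12 WT and 0 of 12 DKO libraries. The other lay 1368 to 2480 bp downstream of the 5′ end, over coding exons, and held most of the strongest summits. The highest fold enrichment of a peak in WT was between 7.92 and 17.3. The 3 libraries of day 0 had 10.2, 12.1 and 7.93, those of day 3 had 17.3, 13.4 and 9.44, those of day 6 had 8.25, 8.92 and 7.92, and those of day 9 had 14.8, 15.6 and 13.5. Its processed pseudogenes Hmgn2-ps1 and Hmgn2l6 held no peak in any library.

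Hmgn1, the other deleted gene, kept its promoter peaks in every DKO library. A stretch of 272 bp upstream of the gene (chr16:96128207-96128478) and 175 bp of the first exon and intron (chr16:96127507-96127681) lay under a peak in all 24 libraries. What was missing in DKO lay between exon 2 and exon 4. A peak covered the whole of exon 4 in each of the 12 libraries of WT but in 1 of the 12 of DKO, and the whole of exon 2 in 11 of 12 and 1 of 12. In each case the 1 DKO library was day 0 replicate 2, the library with wide peaks. Exon 3 was less often covered in WT, as a whole in 8 of 12 libraries and in part in 9. At day 0 the groups overlapped over exons 2 to 4, with means of 0.153 kb in WT and 0.104 kb in DKO. The sequence below runs from the first to the last base that had a peak in at least 10 WT libraries and in no other DKO library (chr16:96127164-96127452, minus strand, 277 to 565 bp from the 5′ end), with the coding letters of exons 2, 3 and 4 in capitals.
Hmgn1 exons 2 to 4: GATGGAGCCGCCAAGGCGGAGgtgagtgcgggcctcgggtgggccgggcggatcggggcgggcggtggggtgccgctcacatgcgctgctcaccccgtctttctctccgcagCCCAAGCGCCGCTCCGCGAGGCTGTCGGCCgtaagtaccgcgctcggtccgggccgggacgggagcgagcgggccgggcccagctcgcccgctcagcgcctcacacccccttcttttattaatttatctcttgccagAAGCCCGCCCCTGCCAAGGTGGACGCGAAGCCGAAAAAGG
The 289 bases are 70.2% G and C and hold 35 CpG dinucleotides. The rule itself was met in separate pieces, from 277 to 339 bp and from 474 to 565 bp, and not by the bases between. In the lists the knockout label thus goes with a window without peaks at Hmgn2 and with a gap inside the gene at Hmgn1.

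**Figure D1:**
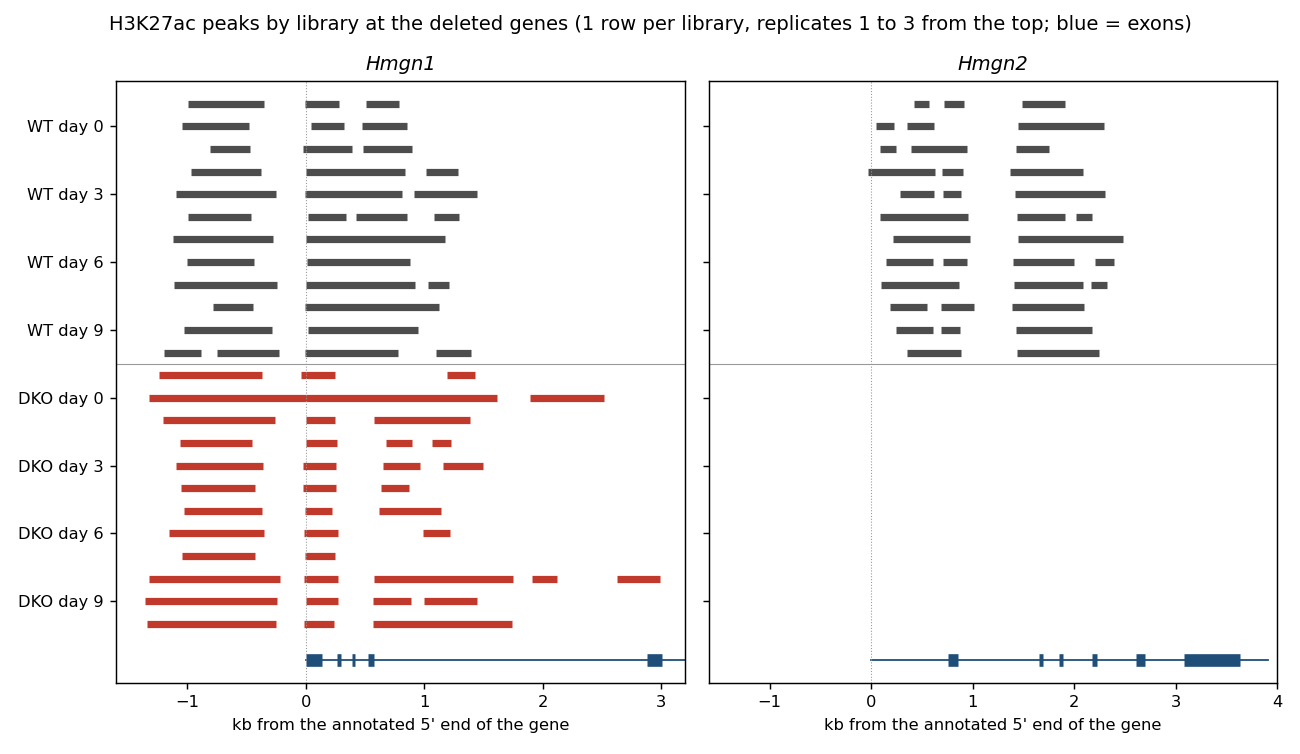
H3K27ac peaks at Hmgn1 and Hmgn2, 1 row per library with replicates 1 to 3 of each group from the top (WT dark, DKO red), against the distance in kb from the annotated 5′ end, with exons in blue. At Hmgn1 the DKO peaks on both sides of the 5′ end remain and a gap runs over exons 2 to 4 in all DKO libraries except day 0 replicate 2, and at Hmgn2 the 12 DKO rows are empty.

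The best Hmgn1 peak had ranks 6593, 11499 and 16370 of its list in WT at day 0 and 8175, 6208 and 7735 in DKO, rank 1 being the lowest q. At day 3 the ranks were 8496, 9041 and 7772 in WT and 6401, 4786 and 3563 in DKO. At day 6 they were 9329, 8185 and 7290 against 9095, 3754 and 4372, and at day 9 8218, 5618 and 10978 against 1540, 6252 and 5234. By rank number the groups were apart only at day 3, but the lists differed in length (64777 to 82585 peaks in DKO and 68629 to 95852 in WT at that day), and as a percent of the list they overlapped there, at 9.28, 9.43 and 11.3 against 9.88, 5.795 and 5.16. At day 6 the percents were 9.13, 8.31 and 6.91 in WT and 12.1, 5.22 and 9.21 in DKO, which overlap. Over the 4 days the log2 rank number was 0.78 lower in DKO, with adjusted p = 0.0375 by the exact permutation test over all genes. Without DKO day 0 replicate 2 the difference of log2 ranks was -0.75 and the adjusted p 0.0590 by the same exact test, and as a percent of the list the rank was 2.29 points lower, with adjusted p = 0.201 by the exact test.

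By fold, Hmgn1 stood at 13.98, 11.7 and 9.15 in WT and 13.4, 10.8 and 14.9 in DKO at day 0. At day 9 it stood at 14.4, 18.9 and 13.7 in WT and 29.8, 19.3 and 19.9 in DKO. All DKO libraries were above WT at day 9 (1.45 times the WT geometric mean) and the groups overlapped at the other days. The summit with the highest fold lay upstream of the gene in WT at day 9 (589 to 637 bp before the 5′ end) and over the first exon and intron in DKO (105 to 146 bp after it). At the upstream element alone the groups overlapped at day 9, at 14.4, 18.9 and 13.7 in WT and 21.6, 17.9 and 18.1 in DKO. At the first exon and intron they did not, at 8.88, 12.6 and 11.6 in WT and 29.8, 19.3 and 19.9 in DKO. Those DKO summits rested on 53 to 92 reads. The 41 to 56 reads of WT at day 9 belong to its summits of highest fold, upstream of the gene. Over the 4 days the log2 fold was 0.16 higher in DKO (adjusted p = 0.361, exact permutation test), and 0.30 higher after each fold was divided by the median of its library (adjusted p = 0.0371, exact permutation test). That division matters because the median fold of the 15006 genes was itself lower in DKO, by 0.14 on the log2 scale over the 4 days and by 0.46 at day 6.

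In covered length, the Hmgn1 window held 1.22, 1.22 and 1.16 kb for WT against 1.40, 3.57 and 2.02 kb for DKO at day 0. The 3.57 kb belong to the library with wide peaks. At day 6 the window held 2.02, 1.44 and 2.13 kb for WT against 1.41, 1.33 and 0.875 kb for DKO. At day 9 it held 1.47, 1.67 and 1.92 kb against 3.14, 2.17 and 2.52 kb. DKO thus lay above WT at days 0 and 9 and below it at day 6, without overlap, beside 15.7%, 23.8% and 49.9% of all genes tested that did the same at those days. With 250 bp either side of each summit in place of the called widths, the difference turned direction at day 0 (-0.142 kb) and at day 6 (0.0447 kb). Upstream of the 5′ end alone, outside the stretch missing in DKO, the WT libraries held 0.340, 0.741 and 0.839 kb and the DKO libraries 1.12, 1.12 and 1.10 kb at day 9. Over exons 2 to 4 the peaks held all of the 0.309 kb in the 3 WT libraries and 0.007, 0.018 and 0.011 kb in DKO at that day. At day 6 the means over exons 2 to 4 were 0.309 kb in WT and 0.003 kb in DKO. Upstream of the 5′ end the day 6 means were 0.763 and 0.704 kb, and the groups overlapped.

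The 4 family members that were not deleted are the ones in which a gain of the mark in DKO was asked for. None of Hmgn3, Hmgn5, Hmga1 and Hmga2 passed the test for covered length between genotypes over the 4 days (adjusted p = 0.996, 1, 0.843 and 0.584 by the exact permutation test, and none at an unadjusted p under 0.05). The differences were -0.104, -0.0249, 0.407 and -1.23 kb. Over all 26883 genes, 0.0223% were higher and 0.115% lower at an adjusted p under 0.05. Of the 6 family genes Hmgn2 alone, which is deleted in DKO, was among them. By rank of the best peak, 1.32% of all genes had a higher and 3.56% a lower rank number in DKO (355 and 957 genes), with Hmgn2 in the first and Hmgn1 in the second set. As a percent of the list the balance turned, to 947 higher and 49 lower. By fold, 0.28% of the 15006 genes were higher and 6.14% lower (42 and 922 genes, which became 385 and 388 after division by the library median), and 0 of the 5 family genes with a peak in all 24 libraries was called. Hmgn3 had the smallest unadjusted p of the 5 by fold (log2 difference -0.33, p = 0.0455, adjusted p = 0.182, exact permutation test).

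At single days, where 3 against 3 libraries cannot give a p below 0.1 in the exact test, the family is given by whether the groups overlap. In covered length, the DKO libraries were all above WT for 3 of the 6 genes at day 0 (Hmgn1, Hmga1 and Hmga2), beside 15.7% of all genes tested, and all below for Hmgn2, beside 0.923%. At day 3 no gene was above (0.8% of all genes) and Hmgn2 was below (9.52%). At day 6 no gene was above (0.115%) and 5 of 6 were below, all but Hmga1, beside 49.9% of all genes. At day 9 Hmgn1 was above (23.8%) and Hmgn2 below (2.15%). Among the 15006 genes with a peak in every library, 67.1% were below at day 6 and 31.3% above at day 9, and the family counts at these days are to be read against those shares. Hmgn2 is deleted in DKO, so its place in the counts was set by the genotype.

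For the highest fold, counted over the 5 genes with a peak in all libraries, no gene was above and Hmgn5 was below at day 0, beside 12.3% and 8.83% of genes. At day 3 Hmga1 was above, beside 3.48%, and no gene was below, beside 28%. At day 6 no gene was above (0.766%) and Hmgn3, Hmgn5 and Hmga2 were below (51.1%). At day 9 Hmgn1, Hmgn3, Hmgn5 and Hmga1 were above, beside 22.5% of genes, and no gene was below (7.98%). Hmgn3 and Hmgn5 thus lay below WT at day 6 and above it at day 9, and of the 4 remaining genes Hmga1 alone was above WT by this measure at more than 1 day.

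**Figure D2:**
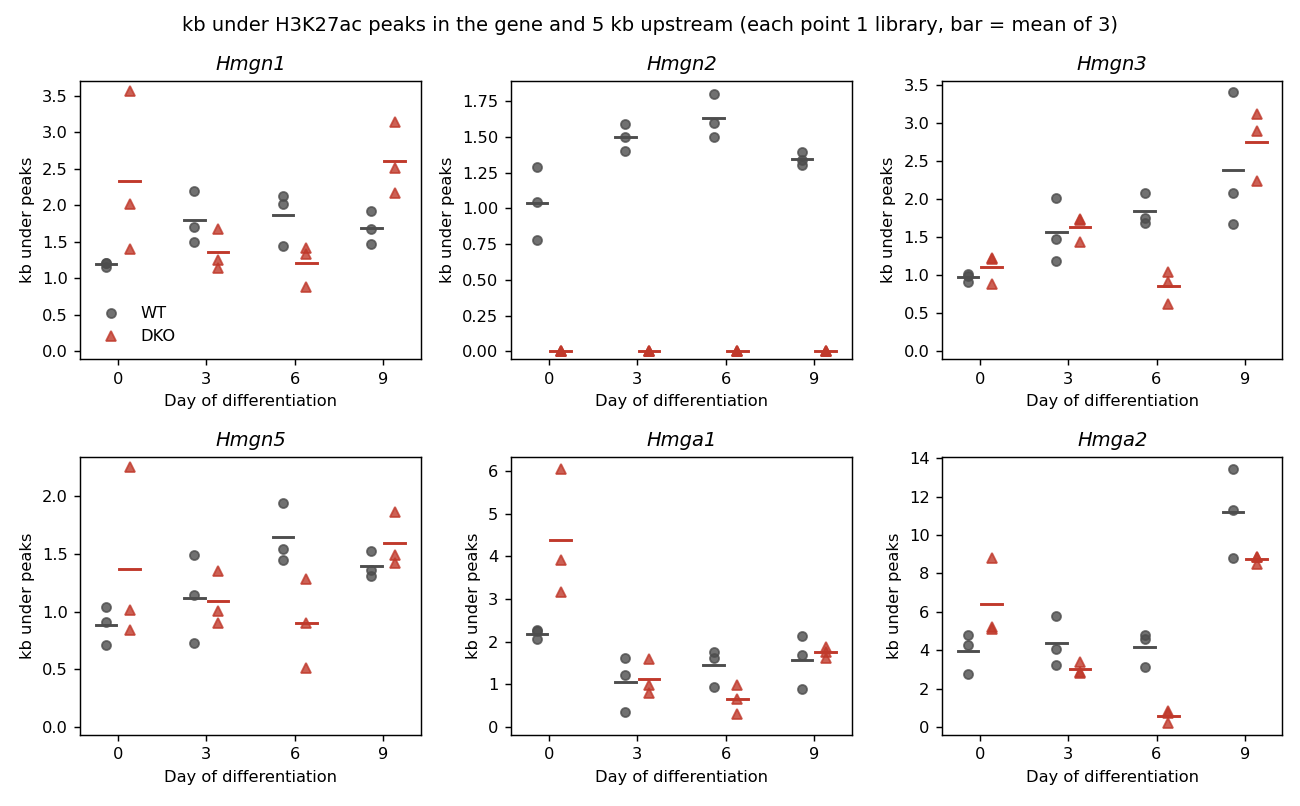
Length under H3K27ac peaks in kb (vertical axis) at days 0, 3, 6 and 9 (horizontal axis) for each family gene, 1 point per library (WT grey circles, DKO red triangles) and a bar for the mean of 3. Hmgn2 is at 0 in all DKO libraries, and the DKO points lie below the WT points at day 6 for every gene but Hmga1, where the groups overlap.

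Hmgn3 had 1 promoter region, from 86 to 1639 bp downstream of its annotated 5′ end, that was called in all 24 libraries, and several intronic regions further in. Among the 5 genes with a peak in all 24 libraries, its highest fold in the window had the lowest ratio of DKO to WT at day 6. The highest fold was 17.7, 14.05 and 13.98 in WT and 7.61, 8.24 and 5.84 in DKO at day 6. All DKO values were below all WT values, at 0.473 times the WT geometric mean, where the median gene stood at 0.726 times, and 3.39% of the 15006 genes had a lower ratio. These summits held 37 to 50 reads in WT and 17 to 26 in DKO, over a background of 1.70 to 2.42 reads. For DKO day 6 replicate 2, the highest of the 3, the 95% exact Poisson interval of the fold was 5.49 to 11.9. For WT day 6 replicate 3, the lowest in WT, the interval was 10.04 to 18.98, and these intervals overlap. Both are for counting error of the reads alone and without molecular identifiers.

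At day 9 the order was the other way round. The fold of Hmgn3 was 10.3, 10.4 and 12.2 in WT and 14.7, 14.6 and 15.8 in DKO, again without overlap, and 1.38 times the WT geometric mean where the median gene stood at 1.08 times. The covered length at day 6 was 1.76, 1.69 and 2.08 kb for WT against 0.907, 1.05 and 0.621 kb for DKO, and at day 9 it was 1.67, 3.41 and 2.08 kb against 3.11, 2.89 and 2.23 kb, which overlap. At day 0 all 6 libraries held 0.886 to 1.23 kb. Between day 0 and day 9 the covered length of Hmgn3 rose by 1.52 kb over both genotypes (adjusted p = 0.0227, exact permutation test, the unadjusted p being the smallest that 400 relabellings can give, 0.005). With the 20000 strongest peaks per list the rise was 0.984 kb and not called (adjusted p = 0.113, exact permutation test), as was then the case for every gene tested. All day 9 libraries were above all day 0 libraries in WT (by 1.41 kb) and in DKO (by 1.63 kb).

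Hmgn5 showed the smallest mean difference between genotypes in covered length over the 4 days (-0.0249 kb), with opposite differences at single days (0.484 kb at day 0, -0.743 kb at day 6). Without day 6 it was 0.215 kb, where Hmgn3 was 0.189 kb. The peaks of Hmgn5 flanked the start site, with 111 bp downstream (159 to 269 bp from the 5′ end) and 57 bp upstream (320 to 376 bp before it) under a peak in all 24 libraries. The covered length was 0.710, 1.04 and 0.910 kb for WT against 0.845, 2.26 and 1.01 kb for DKO at day 0, where the 2.26 kb belong to the library with wide peaks. At day 6 it was 1.45, 1.54 and 1.94 kb for WT against 0.903, 1.29 and 0.510 kb for DKO, with all DKO values below WT. By fold Hmgn5 was below WT at day 0 (6.90, 7.03 and 7.10 in DKO against 7.63, 10.5 and 9.52) and above it at day 9 (12.8, 10.7 and 11.04 against 8.22, 8.84 and 9.20). The summits rested on 18 to 39 reads in all libraries. From day 0 to day 9 the covered length was 0.367 kb higher over both genotypes (adjusted p = 0.302, exact permutation test), and 0.588 kb higher without DKO day 0 replicate 2 (adjusted p = 0.0180, exact permutation test).

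Hmga1 held less of the mark at day 9 than at day 0, by a call that depended on how the peaks were counted. At day 0 the windows held 2.27, 2.25 and 2.06 kb for WT against 3.17, 6.05 and 3.91 kb for DKO, with all DKO values above WT, also without the 6.05 kb of the library with wide peaks. With that library included the ratio of means was 1.997, the median gene stood at 1.26 times, and 96.9% of genes had a lower ratio. Several marker lists moved in the same direction at day 0 without overlap: the 4 immune markers (Ptprc, Adgre1, Cd68, Csf1r) from 18.5 to 20.4 kb for WT against 22.3 to 45.2 kb for DKO, the adipocyte markers from 10.3 to 12.7 kb against 12.99 to 27.8 kb, the 4 endothelial markers from 6.62 to 7.27 kb against 7.36 to 16.1 kb, and the epithelial markers, with no peak at Epcam, Krt8 and Krt18, from 0 to 0.249 kb against 0.504 to 1.85 kb. The preadipocyte markers overlapped (31.95 to 38.0 kb against 28.5 to 55.0 kb). Their part in the result was not tested. The promoter region of Hmga1 ran from 1597 bp upstream to 2196 bp downstream of the 5′ end and was chosen after the peaks had been seen. It held 1.36 ± 0.2003 kb at day 0 for WT and 2.76 ± 0.902 kb for DKO (SD, n = 3), without overlap. The DKO libraries held 2.30, 3.79 and 2.17 kb. The 3.79 kb are the whole region, under 1 peak of the library with wide peaks. A second region between 4838 and 5854 bp downstream was called in 11 libraries of each genotype.

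By day 9 the Hmga1 windows held 0.885, 2.13 and 1.68 kb for WT against 1.87, 1.76 and 1.62 kb for DKO, with overlapping groups. From day 0 to day 9 the covered length fell by 1.63 kb over both genotypes (adjusted p = 0.0395, exact permutation test). The call was lost with the 20000 strongest peaks (-0.862 kb), with 250 bp around summits (-0.810 kb), over the gene span alone (-0.621 kb) and at −log10 q of at least 5 (-1.70 kb). The day 9 libraries were all below the day 0 libraries in DKO, and overlapped with them in WT. The fold of Hmga1 at day 3 was 6.17, 6.34 and 6.04 in WT and 8.01, 9.60 and 8.13 in DKO, without overlap, and 98.2% of genes had a lower ratio at that day. At day 9 it was 7.57, 8.13 and 7.79 in WT and 9.60, 8.93 and 13.3 in DKO, again without overlap. The day 3 summits were shallow, with 13 to 17 reads in WT and 19 to 24 in DKO. By rank, Hmga1 was 0.48 lower on the log2 scale in DKO over the 4 days (p = 0.0415, adjusted p = 0.166, exact permutation test). Its near copy Hmga1b on chromosome 11 had a peak in 1 library, so reads that could belong to either gene are a limit that the lists do not resolve.

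**Figure D3:**
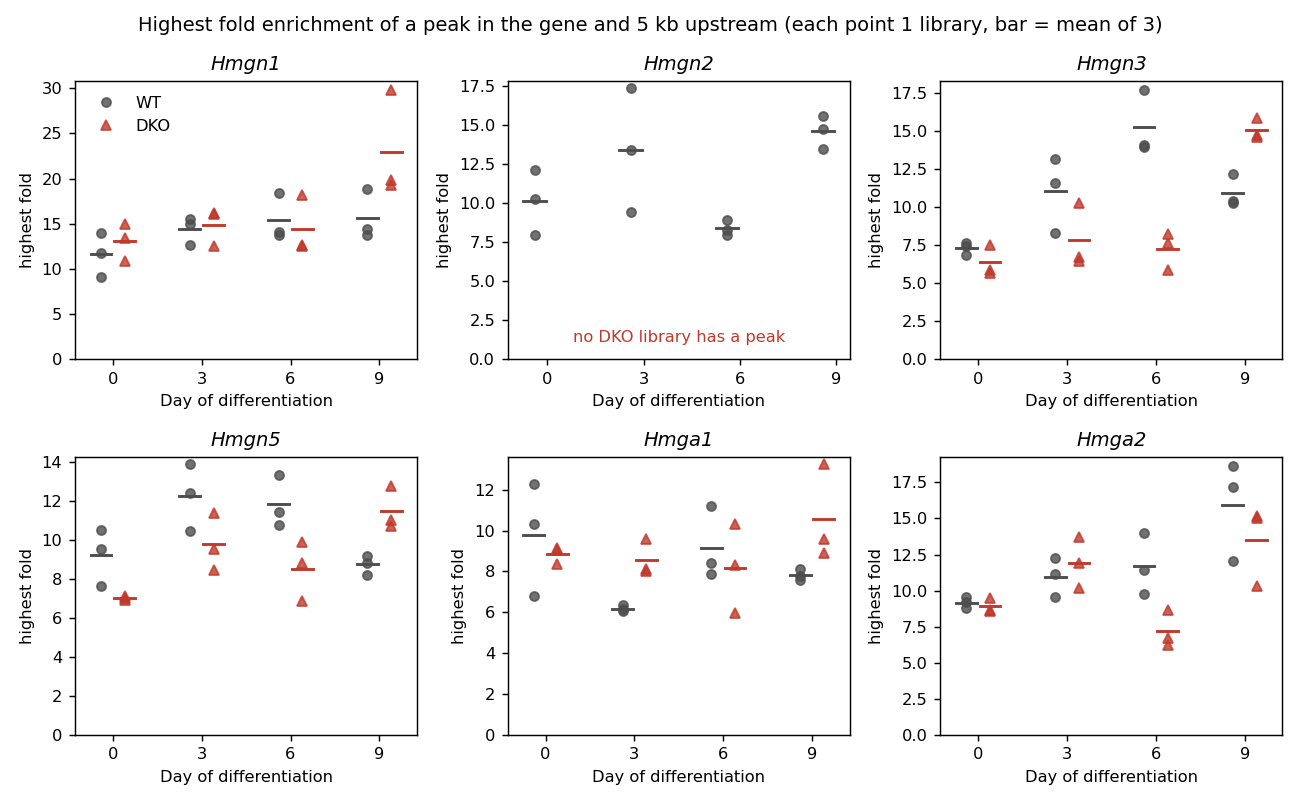
Highest fold enrichment of a peak (vertical axis) at days 0, 3, 6 and 9 for each family gene, 1 point per library (WT grey circles, DKO red triangles) with a bar for the mean of 3. At day 9 the DKO points of Hmgn1, Hmgn3, Hmgn5 and Hmga1 lie above all WT points, and at day 6 those of Hmgn3, Hmgn5 and Hmga2 lie below.

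Hmga2 had the most peaks of the family and the largest difference between genotypes at a single day. At day 6 the window held 4.77, 3.11 and 4.61 kb under 9, 5 and 9 peaks in WT and 0.815, 0.707 and 0.225 kb under 2, 2 and 1 peaks in DKO. Marker lists were lower too at that day without overlap: the preadipocyte markers (10.6 to 15.6 kb in DKO, 32.8 to 33.2 kb in WT), the adipocyte markers (47.7 to 73.2 kb, 76.9 to 82.4 kb) and the endothelial markers (1.17 to 2.38 kb, 3.78 to 3.96 kb), while the immune markers overlapped (4.88 to 9.88 kb, 8.52 to 9.85 kb). Their part in the result was not tested. All Hmga2 values of DKO were below all WT values, at 0.140 times the WT mean, where the median gene stood at 0.690 times, and 0.293% of the 15006 genes had a lower ratio. At the other days the order was mixed. At day 0 the lengths were 2.75, 4.81 and 4.26 kb for WT against 5.23, 8.81 and 5.12 kb for DKO, all above WT. The 8.81 kb belong to the library with wide peaks. At day 3 the lengths were 4.08, 5.77 and 3.25 kb for WT against 2.80, 3.37 and 2.89 kb for DKO. At day 9 they were 8.80, 13.4 and 11.3 kb against 8.86, 8.86 and 8.50 kb. The groups overlapped at days 3 and 9.

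In the promoter region, from 1571 bp upstream to 2336 bp downstream of the 5′ end, the WT libraries held 2.05, 2.26 and 2.42 kb and the DKO libraries 0.274, 0.183 and 0 kb at day 6. In an intronic region 45.7 to 48.7 kb downstream, called in all 24 libraries, the lengths were 1.53, 0.854 and 1.26 kb for WT against 0.541, 0.524 and 0.225 kb for DKO. The DKO length was 0.0678 times the WT length at the promoter and 0.354 times at the intronic region, and the difference between the regions was not tested. Outside both regions the day 6 libraries of WT held 1.19, 0 and 0.918 kb, and those of DKO held none. At day 3 the DKO libraries were also below WT at the promoter (1.77 ± 0.186 kb against 2.33 ± 0.206 kb, SD, n = 3) and overlapped with WT at the intronic region. At day 9 both regions overlapped between genotypes, with 3.14, 3.38 and 3.34 kb for WT against 2.83, 3.23 and 2.98 kb for DKO at the promoter. These regions were chosen after the peaks had been seen.

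The promoter region of Hmga2 was called in 23 of the 24 libraries, with 2 of 3 in DKO at day 6. A stretch of the Hmga2 intron lay under a peak in all 24 libraries (chr10:120428877-120429101, minus strand, 47368 to 47592 bp from the 5′ end). It is shown here with CpG dinucleotides in capitals.
Hmga2 intron: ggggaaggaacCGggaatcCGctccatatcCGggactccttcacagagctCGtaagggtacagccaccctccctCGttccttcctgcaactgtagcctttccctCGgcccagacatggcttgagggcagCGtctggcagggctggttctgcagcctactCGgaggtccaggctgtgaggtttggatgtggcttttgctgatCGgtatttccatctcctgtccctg
It is 59.1% G and C and holds 9 CpG dinucleotides in 225 bases. The fold of the peaks in this region was 14.01, 11.4 and 8.45 in WT and 8.64, 6.73 and 6.22 in DKO at day 6, so that the groups overlapped there. The promoter peaks stood at 7.30, 10.3 and 9.75 in WT at day 6 and at 3.81 and 4.79 in the 2 DKO libraries that had one.

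**Figure D4:**
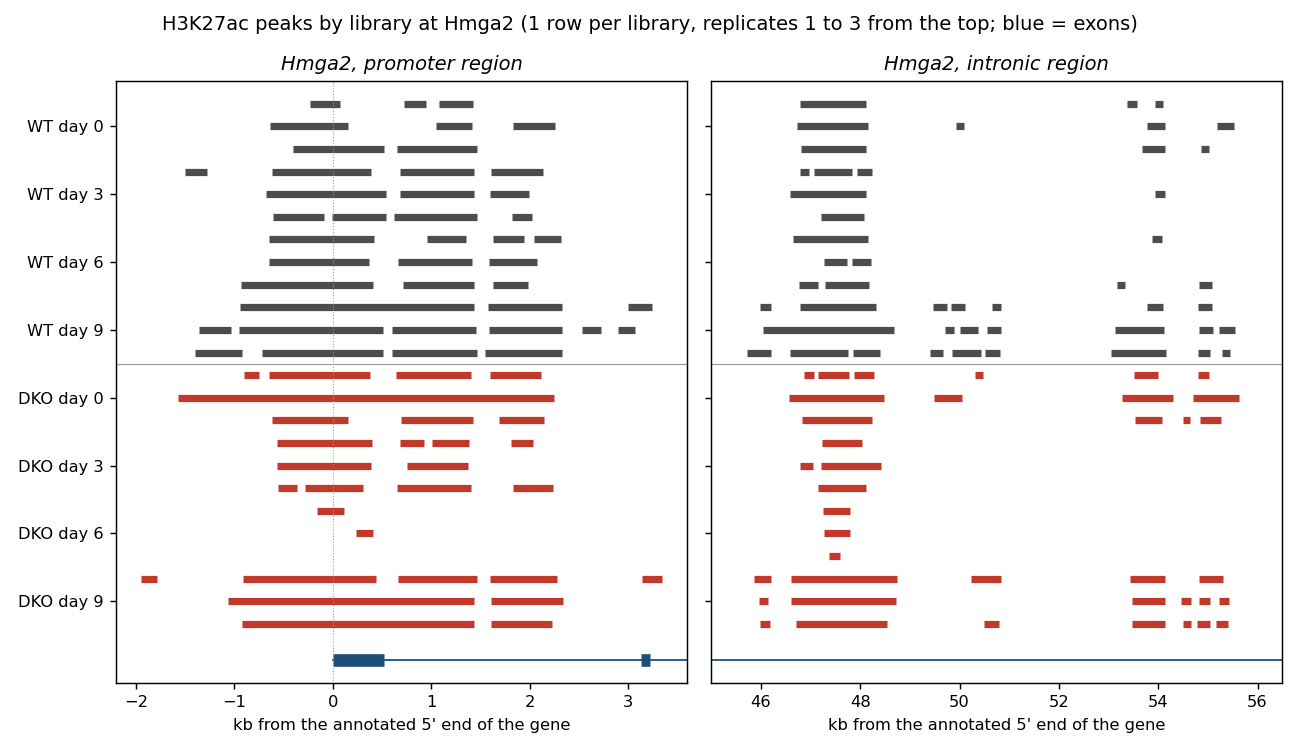
H3K27ac peaks at Hmga2, 1 row per library with replicates 1 to 3 of each group from the top (WT dark, DKO red), against the distance in kb from the annotated 5′ end, at the promoter (left) and around the intronic region (right), with exons in blue. The DKO day 6 rows hold 1, 1 and 0 promoter peaks and a short intronic peak each, and the DKO day 9 rows are filled in both regions.

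Over differentiation Hmga2 went the opposite way to Hmga1. From day 0 to day 9 its covered length rose by 4.80 kb over both genotypes (adjusted p = 0.0395, exact permutation test), beside 13% of all genes that were higher and 12.3% that were lower at day 9. With the 20000 strongest peaks the rise was 3.67 kb (adjusted p = 0.0527, exact permutation test), and 0 genes were called in either direction. The 3 WT libraries of day 9 were all above those of day 0, by 7.24 kb on average, whereas in DKO the mean difference was 2.35 kb and the groups overlapped. Hmgn3 and Hmga2 were among the genes with more of the mark, Hmga1 among those with less, and Hmgn1, Hmgn2 and Hmgn5 passed in neither direction (adjusted p = 0.508, 0.225 and 0.302, exact permutation test). Without DKO day 0 replicate 2 the Hmgn1 difference was 0.694 kb in place of 0.384 kb and was called (adjusted p = 0.0301, exact permutation test), as was that of Hmgn5. The adipocyte markers held 52.8 to 62.6 kb for WT against 82.9 to 88.4 kb for DKO at day 9. The immune markers held 6.12 to 7.88 kb against 8.86 to 10.3 kb, also without overlap. The preadipocyte markers (31.5 to 37.0 kb against 31.98 to 36.1 kb) and the endothelial markers (2.69 to 4.32 kb against 4.11 to 5.72 kb) overlapped. So did the epithelial markers (0.515 to 1.222 kb against 1.201 to 2.01 kb). The part of these markers in the results was not tested.

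**Figure D5:**
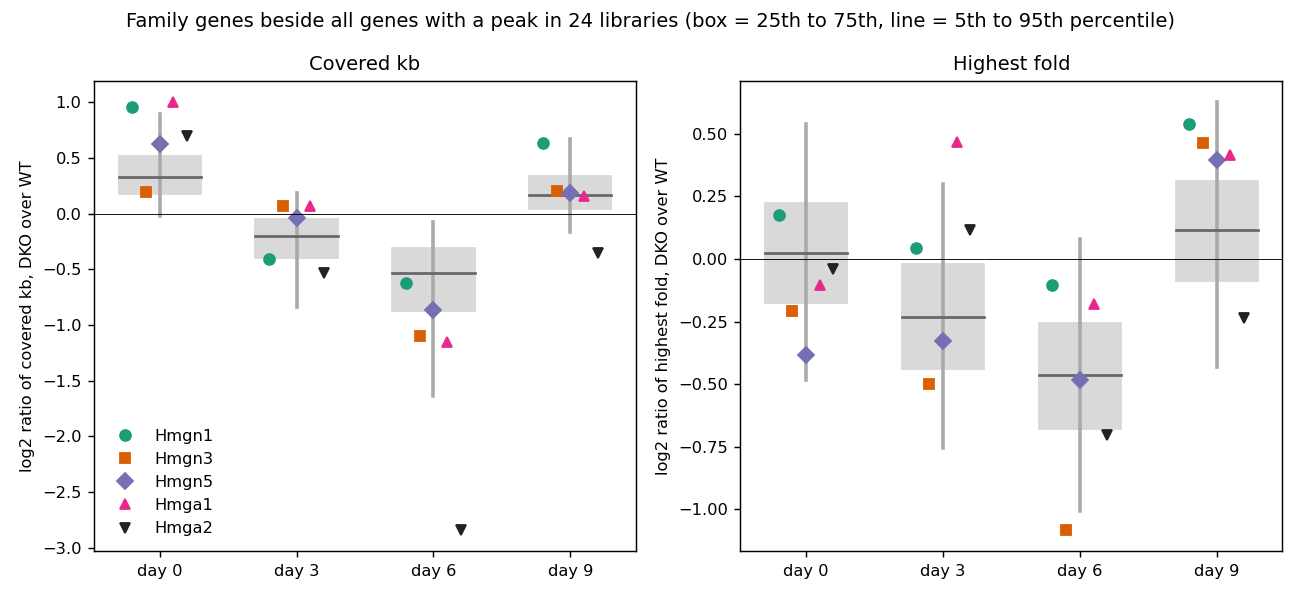
log2 ratio of DKO to WT for covered kb (left) and highest fold (right) at each day, with family genes as coloured symbols, and the 15006 genes with a peak in all libraries as a box (25th to 75th percentile, median line) and a line (5th to 95th percentile). Hmga2 lies at -2.84 at day 6 for covered kb where the median gene is at -0.53, and Hmgn3 at -1.08 for fold where the median is -0.46.

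Other nucleosome-binding genes were examined beside the family: 25 genes for HMGB proteins, linker histones H1, HP1 proteins, histone chaperones, remodellers and others. All 25 had a peak in at least 1 library and 23 in all. By the same exact permutation test, 0 of 25 differed in covered length over the 4 days at an adjusted p under 0.05, and 0 at an unadjusted p under 0.05. By rank number 1 of 25 was called, Chd4, a nucleosome remodeller (log2 difference -1.30, adjusted p = 0.0321, exact permutation test), beside 3.56% of all genes called lower. By fold 0 of the 23 with a peak in all libraries were called, beside 0.28% higher and 6.14% lower of the 15006 genes. Of the 23, 5 had an unadjusted p under 0.05 by the exact test (Hist1h1a, Hist1h1e, Cbx1, Ssrp1 and Smarca4), all lower in DKO. Chd4 and these 5 are named after their values were seen. By fold 80.1% of the 15006 genes were lower in DKO over the 4 days, with a median of -0.14 on the log2 scale. The share of all genes at an unadjusted p under 0.05 was not counted. The median difference was -0.0893 kb, against -0.0100 kb over all genes. DKO was above WT without overlap for 2 and below for 0 of the 25 at day 0, beside 15.7% and 0.923% of all genes tested. On day 3 these counts were 0 and 1, beside 0.8% and 9.52%. On day 6 they were 0 and 17, and on day 9 they were 7 and 1. The 17 and the 7 stand beside 49.9% and 23.8% of all genes tested, and 67.1% and 31.3% of those with a peak in all 24 libraries. The genes with the smallest p in each direction were Parp1, which codes for a nucleosome-binding ADP-ribosyltransferase (0.412 kb higher, p = 0.109 by the exact test), Hmgb3 (0.0329 kb higher, exact p = 0.2) and Smarca4, the BRG1 remodeller (0.398 kb higher, exact p = 0.573). On the lower side were Supt16, a subunit of the histone chaperone FACT (0.225 kb lower, exact p = 0.109), Cbx1, an HP1 protein (0.184 kb lower, exact p = 0.205), and Nap1l1, a histone chaperone (0.334 kb lower, exact p = 0.225).

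The genes whose covered length varied most like that of a remaining member were read from Pearson's r over the 24 libraries, across 13811 protein-coding genes (13810 for Hmga1) with a peak in at least 12 libraries. For Hmgn3 these were Pde3a (r = 0.909), Gm10309 (0.908) and Jcad (0.898). For Hmgn5 they were Ogfod2 (0.959), Hp1bp3 (0.929) and Abhd17b (0.912). For Hmga1 they were Chchd6 (0.972), Itpkb (0.969) and Stom (0.968), and for Hmga2 Ston1 (0.951), Upk3bl (0.947) and Fig4 (0.947). The points share their libraries, and with them the number and width of the peaks called in each, so these values describe likeness across libraries and carry no test.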

How the data were processed

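H3K27ac ChIP-seq peak lists of 24 libraries were used, 3 for each of 2 genotypes at 4 days. The 16 input libraries were not analysed here. The submitters' processing notes name bcl2fastq 2.17, cutadapt 1.18, BWA 07.17 and MACS2 2.1.1.20160309. Per the labels the build was mm10. The peaks were called by the authors, and the lists differ between libraries. The deposited lists give for each peak a fold enrichment at its summit (a ratio to the local background), −log10 p and −log10 q values, and a display score, which was not used. No read totals are given, so library depth is unknown. Reads at the summit were recovered for 568 of 569 peaks of the family from fold and p together (within 0.001 of the deposited −log10 p). These intervals cover counting error only.

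For every GENCODE gene the span with 5 kb upstream was intersected with the lists (Python 3.11.15, numpy 2.4.6, pandas 2.3.3, scipy 1.17.1, matplotlib 3.10.9), and the kb under peaks, the highest fold and the best q rank in the list were taken. A gene without a peak was given the rank after the last, so a rank difference of such a gene depends on the length of the list. Genotypes were compared over the 4 days by an exact two-sided permutation test within days, and day 9 with day 0 within genotypes, with Benjamini-Hochberg adjustment over all genes tested and calls at 0.05. The test was checked on simulated covered lengths over the 4 days. A change of 1 within-group SD was called in 4 of 100 genes and a change of 3 SD in 98 of 100. Small changes can therefore be missed by this test. Family genes, other nucleosome-binding genes and markers were chosen with earlier results of these data known. Of the other list, the 3 genes with the smallest p in each direction were named, and 3 genes of most similar covered length for each remaining member. Alternatives were a −log10 q minimum of 5, the 20000 strongest peaks per list, 250 bp either side of each summit, the gene span alone, rank as a percent of the list, fold divided by the library median, a replicate block and leaving out libraries. Leaving out day 6 was added after seeing the data. No 2 lists were identical.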

Additional observations from a re-analysis of the deposited data

Results flagged for a closer look

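The order of the genotypes changed between days for Hmgn1 and Hmga2 in covered length, with every library of DKO on one side of WT at one day and on the other side at another. For Hmgn1 the mean of DKO minus WT was 1.13 kb on day 0, -0.657 kb on day 6 and 0.922 kb on day 9. In Hmga2 it was 2.45 kb on day 0 and -3.58 kb on day 6. The day 0 means include DKO day 0 replicate 2, the library with wide peaks, at 3.57 kb for Hmgn1 and 8.81 kb for Hmga2. The other DKO libraries of day 0 held 1.40 and 2.02 kb for Hmgn1, and 5.23 and 5.12 kb for Hmga2, also above WT. Of all genes tested, counted at each day separately, 15.7% lay above WT on day 0, 49.9% below on day 6 and 23.8% above on day 9. With 250 bp either side of each summit the Hmgn1 difference was -0.142 kb on day 0 and 0.0447 kb on day 6. The Hmgn1 window holds exons 2 to 4, where peaks were missing in DKO. On day 6 the means there were 0.309 kb in WT and 0.003 kb in DKO. Upstream of the 5′ end they were 0.763 and 0.704 kb on that day, and the groups overlapped. The difference between days was not tested for either gene, and the lists of DKO also held fewer peaks than those of WT at day 6.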

How the results depend on the processing

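Of 237 member differences over days under an alternative, 179 kept direction and side of the threshold, 37 lost the call, 3 gained one and 18 turned direction. Of 84 counts of called genes, 61 moved by over 1.5 times. The cause was not tested. Fits without a replicate, with the replicate block or without day 6 allow fewer relabellings, and the smallest p they can give is larger. Fewer relabellings did not always go with fewer calls, as the counts without single libraries below show.

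Hmgn2 covered length was -0.661 kb with 20000 peaks per list and -1.29 kb without day 6, both no longer called, and ranged from -1.38 to -1.37 kb when one replicate number was left out. Its log2 rank was 2.82 without day 6 and 2.46 to 2.90 without one replicate number. The Hmgn1 log2 rank was -0.78 with 20000 peaks, -0.83 without day 6, -0.85 to -0.67 without one replicate number and -0.75 without DKO day 0 replicate 2. As percent of the list, the Hmgn1 rank difference was -2.29 percentage points. None of these was called, and the log2 rank stayed called without WT day 3 replicate 3. The Hmgn1 log2 fold was 0.30 after division by the library median, where it was called.

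Directions turned where differences were small. Hmgn1 covered length was -0.00325 kb over the gene span alone. Hmgn3 was 0.189 kb without day 6. Hmgn5 was 0.0472 kb at −log10 q of at least 5, 0.0817 kb with 20000 peaks, 0.215 kb without day 6, and between -0.156 and 0.0504 kb without one replicate number. The Hmgn5 log2 rank was -0.10 over the gene span, -0.10 to 0.23 without one replicate number or single libraries. The Hmga2 log2 rank was 0.0193 with 20000 peaks and -0.0479 to 0.0762 without replicates or single libraries. As percent of the list, the Hmga2 rank difference was 2.92 percentage points. With 250 bp either side of each summit, DKO minus WT for Hmgn1 was -0.142 kb at day 0 and 0.0447 kb at day 6.

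From day 0 to day 9, with 20000 peaks, Hmgn3 was 0.984, Hmga1 -0.862, Hmga2 3.67 and Hmgn5 -0.347 kb, and none was called. Hmga1 was -1.70 kb at −log10 q of at least 5, -0.810 kb with 250 bp around summits and -0.621 kb over the gene span, also without a call. Hmgn2 was -0.0873 kb with 250 bp around summits. Without replicates or DKO day 0 replicate 2, Hmgn3 was 1.26 to 1.77, Hmga1 -1.78 to -1.21, Hmga2 4.59 to 5.40, Hmgn1 0.0778 to 0.813 and Hmgn5 0.183 to 0.662 kb, and without a replicate number no p below 0.0556 can be had. Without DKO day 0 replicate 2 alone, Hmgn1 was 0.694 kb and Hmgn5 0.588 kb, both then called.

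For covered length, 6 genes were higher and 31 lower between genotypes. These were 2 and 140 with 250 bp around summits, 11 lower at −log10 q of at least 5, 4 lower with 20000 peaks, 0 and 0 without day 6, and 0 to 16 higher and 0 to 309 lower without replicates or single libraries, 309 being without DKO day 0 replicate 2 and 63 without WT day 3 replicate 3. For rank, 355 were higher and 957 lower. These were 83 and 79 with 20000 peaks, 232 higher over the gene span, 947 and 49 as percent of the list, and 0 and 0 without day 6, while 0 to 443 were higher and 0 to 1580 lower without replicates or single libraries (554 lower without DKO day 0 replicate 2, 1580 without WT day 3 replicate 3). For fold, 42 were higher and 922 lower. These were 6 and 531 with 20000 peaks, 385 and 388 after division by the library median, 0 and 0 without day 6, and 0 to 33 higher and 0 to 1056 lower without replicates or single libraries (543 lower without DKO day 0 replicate 2). From day 0 to day 9, 3490 were higher and 3309 lower. These were 0 and 0 with 20000 peaks, 998 lower with 250 bp around summits, and 0 to 6450 higher and 0 to 3260 lower without replicates or DKO day 0 replicate 2.

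The replicate numbers did not pair the libraries. Over 12 pairs of same-numbered libraries, correlations of deviations ran from -0.83 to 0.89, 4 were over 0.1, and 3 correlated best with their own number. With the replicate block 0 genes were called in all 4 comparisons. The block left the values as they were, so Hmgn2 covered length (-1.38 kb), Hmgn1 and Hmgn2 log2 rank (-0.78 and 2.64) and the day 9 differences of Hmgn3 (1.52), Hmga1 (-1.63) and Hmga2 (4.80 kb) lost their calls.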

Other observations

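Outside the window of Hmgn2, the next peak upstream lay 5.41 to 5.45 kb beyond the window's end in all 3 DKO libraries of day 9, and 5.82 kb beyond it in DKO day 6 replicate 2. In the 12 WT libraries and the other DKO libraries it lay 26.4 to 26.8 kb beyond. These distances were looked at after the peaks had been seen, and no test was made.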
